A study of Arabidopsis thaliana with 6 samples.

Results

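Transcripts that read lower on the array titled man than on the arrays titled wat, glc, OMG and DOG were collected from 6 arrays of Arabidopsis thaliana seedlings. A probe set was a member when its lowest signal among wat, glc, OMG and DOG was at least 60 and its signal in man was at or below 0.7 times that lowest signal. In addition, glc had to stay under 1.5 times the highest of wat, OMG and DOG, and zer under 1.5 times the highest of wat, glc, OMG and DOG. Of 22746 probe sets other than controls, 8404 reached the lowest signal of 60 and 34 met the whole numeric rule. EXPA15, an expansin gene of cell wall loosening, met it but was left out by name, together with any other listed expansin and any gene with a symbol beginning CYP, UGT or GSTU. The remaining 33 probe sets were the members. For 18 of them the platform annotation named a single gene; 15 are unnamed here and could not be checked against the left-out families.

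All 6 samples were whole Col-0 seedlings at growth stage 1.02, grown in continuous light at 23 °C on half-strength MS medium with 0.8% agar after 72 h of stratification at 4 °C. Each group had 1 array, titled man, wat, zer, glc, OMG or DOG. Groups were known from these titles alone, since the treatment field read none for every sample, and no dose or duration is given in the sources used here. The title of the series names non-metabolised analogs of glucose and sensing without hexokinase, so glc was read as glucose and OMG and DOG as analogs. A related publication, and not the labels, gives the analogs as 3-O-methylglucose and 6-deoxyglucose. The titles zer, wat and man are not spelled out, and whether man means mannitol or mannose is not settled.

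With 1 array per group there was no replicate error, no test and no p-value, and every difference given here compares single arrays. The number of arrays limits the precision. The members were chosen by their signals in man against those in wat, glc, OMG and DOG, with the upper limits on glc and zer, so the distance of man from wat, glc, OMG and DOG is a description and shows nothing beyond the rule. The rule bounded zer among the members only from above. Glc was bounded from above and, being one of the arrays set against man, also from below. Whole seedlings were sampled, so fewer cells of a type and less RNA per cell cannot be told apart.

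Beyond a locus number, 3 members had a symbol: CHIL, BGLU15 and SCPL45. CHIL encodes a chalcone isomerase-like protein, a non-catalytic helper of the flavonoid pathway. That pathway turns phenylpropanoid precursors into chalcone and then into flavonols and anthocyanins, which in seedlings serve as light screens, antioxidants and pigments. BGLU15 encodes a beta-glucosidase, one of a large family of enzymes that split glucose from conjugates; flavonol glycosides are among the substrates known for it. SCPL45 encodes a serine carboxypeptidase-like protein, of a family that holds peptidases and also acyltransferases of plant secondary metabolism. The other 15 named members carry a locus identifier and no function in the annotation used here.

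Members were lower in man by modest factors. The lowest of wat, glc, OMG and DOG exceeded man by 1.43-fold to 1.96-fold, with a median of 1.51-fold, and 17 of the 33 members reached 1.5-fold. Against wat alone, 5 members were at least 2-fold lower in man, as were 10 of the 8404 probe sets (0.119%). At 1.5-fold against wat the counts were 27 of 33 members and 1.33% of the 8404. These shares used the contrast that chose the members and carry no support. The median member signal was 52.2 in man, and it ran from 90 in DOG to 110.4 in zer on the other arrays.

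**Figure D1:**
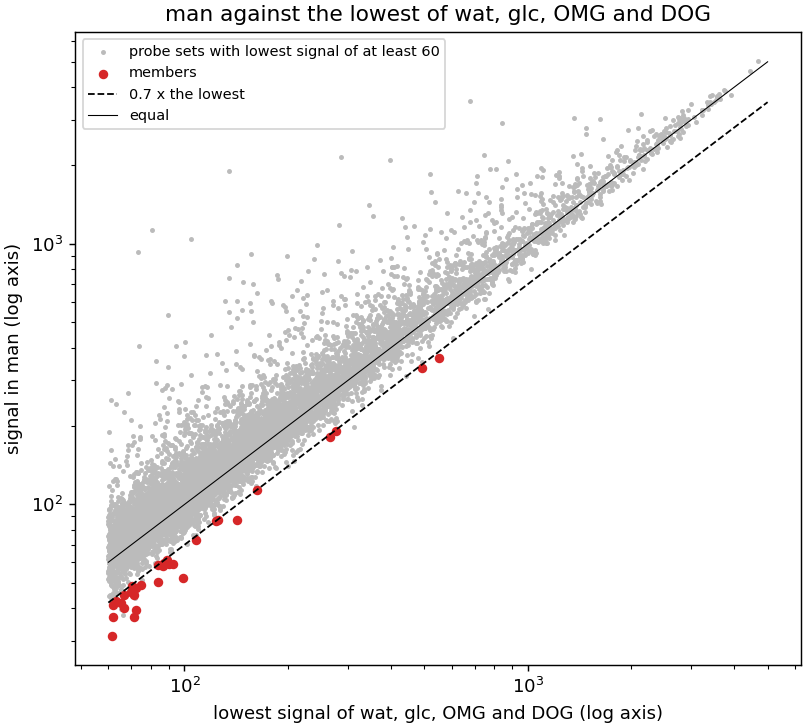
Signal in man against the lowest signal of wat, glc, OMG and DOG, both on log axes, for the 8404 probe sets with a lowest signal of at least 60 (grey) and the 33 members (red); the dashed line is 0.7 times the lowest and the solid line equality. The members lie at or under the dashed line, and 24 of them have a lowest signal under 100.

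The set was small beside the whole table. Before the limits on glc and zer and the exclusion by symbol, man was at or below 0.7 times the lowest of wat, glc, OMG and DOG for 39 of 8404 probe sets (0.464%). When the same ratio was read for each other array against the remaining 4 of wat, glc, OMG, DOG and man, 9 of 8311 probe sets were low in wat, 8 of 8321 in OMG and 9 of 8315 in DOG. In glc there were 441 of 8485, or 5.2%. The count of members, 33, rose when an array set against man was left out. It was 50 without wat, 43 without glc, 49 without OMG and 54 without DOG. Leaving out an array can only keep or raise the lowest signal, which loosens the ratio. The rises thus say nothing about any particular array.

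Most members were dim. The lowest signal of wat, glc, OMG and DOG was under 100 for 24 of 33 members, and for 32.5% of the 8404 probe sets. By level, man was at or below the 0.7 ratio for 28 of 2732 probe sets with a lowest signal from 60 to 100 (1.02%), 6 of 2764 from 100 to 200 (0.217%) and 5 of 2908 at 200 or more (0.172%). The part of measurement scatter in this gradient was not tested. Only 9 probe sets met the rule with a lowest signal of at least 100, and of the named members these were AT5G10920, AT2G28080 and CHIL.

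CHIL was the brightest named member. It read 244.6 in zer, 190.7 in wat, 229.8 in glc, 165.0 in OMG, 162.9 in DOG and 113.7 in man. The signal was highest in zer and glc, lower in the 2 analog arrays and lowest in man, where DOG, the nearest array, was 1.43-fold above it. CHIL lay close to the edge of the rule, with a ratio of man to the lowest of 0.698. It no longer met the 0.7 ratio after quantile normalization (log2 difference -0.49) or after scaling to equal medians (-0.48), and still read lowest in man in both.

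BGLU15 read 81.6 in zer, 68.0 in wat, 75.4 in glc, 66.8 in OMG, 68.0 in DOG and 40.1 in man. Its signals on wat, glc, OMG and DOG stayed within 1.13-fold of each other, and man stood 1.67-fold under the lowest of them. SCPL45 showed the same kind of profile, with 83.9 in wat, 89.9 in glc, 84.9 in OMG, 92.0 in DOG, 114.6 in zer and 50.3 in man. Here wat, glc, OMG and DOG lay within 1.1-fold, and man stood 1.67-fold under wat, the lowest of them. Both genes met the rule under both other scalings.

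**Figure D2:**
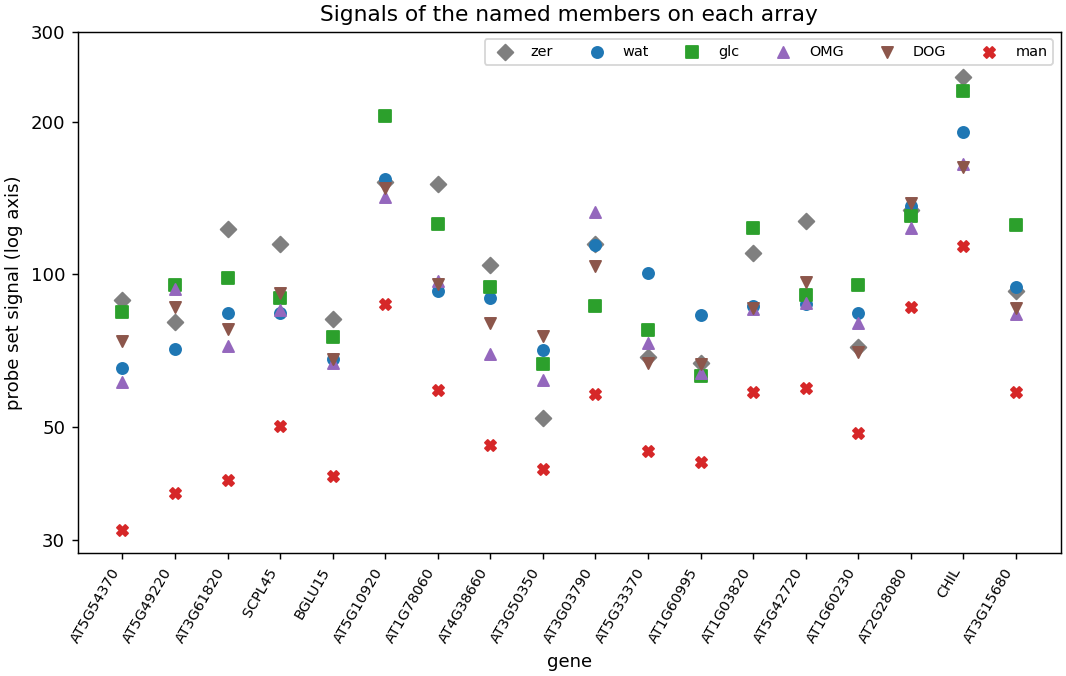
Probe set signal (log axis) of the 18 named members on each of the 6 arrays, 1 point per array, ordered from the smallest ratio of man to the lowest of wat, glc, OMG and DOG. Man is the lowest point for every gene, while the highest point is zer for 8 genes and glc for 5. Over the 8404 probe sets zer was highest of the 6 arrays in 20.2%, glc in 29.8% and man in 19%. The rule bars members from being highest in man, so the counts and these shares are not alike.

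Besides CHIL, BGLU15 and SCPL45, 5 members named by locus were highest in zer. AT5G54370 had the smallest ratio of all members, reading 31.3 in man against 61.4 in OMG, 65.5 in wat, 73.8 in DOG, 84.2 in glc and 89.1 in zer. Man was 1.96-fold under OMG, its nearest array. AT3G61820 read 39.4 in man, 72.2 in OMG, 78.1 in DOG, 83.8 in wat, 98.3 in glc and 123.1 in zer. Its zer signal was 3.12-fold that of man, the widest gap between those arrays among the members. AT1G78060 read 59.2 in man, between 92.5 and 96.8 in wat, OMG and DOG, 125.9 in glc and 150.9 in zer. The wat, OMG and DOG arrays thus read alike, and glc and zer stood above them. AT4G38660 read 46.0 in man, 69.7 in OMG, 80.3 in DOG, 89.8 in wat, 94.2 in glc and 104.3 in zer. AT5G42720 read 59.8 in man, 87.2 in wat, 87.9 in OMG, 91.0 in glc, 96.7 in DOG and 127.3 in zer. In AT5G42720 the zer signal was 1.42-fold the median of wat, glc, OMG and DOG, which themselves lay within 1.11-fold.

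Another 5 named members were highest in glc. AT5G49220 read 37.0 in man, 71.3 in wat, 80.7 in zer, 86.1 in DOG, 93.5 in OMG and 95.4 in glc. It had the largest difference in man from the median of wat, glc, OMG and DOG, 2.43-fold, and its nearest array was wat. AT5G10920 read 87.2 in man, 142.2 in OMG, 148.2 in DOG, 152.0 in zer, 154.4 in wat and 205.2 in glc. AT1G03820 read 58.5 in man, between 85.5 and 86.6 in OMG, DOG and wat, 110.4 in zer and 123.5 in glc. For AT1G03820, glc was 1.43-fold wat, the largest such difference among the named members. AT1G60230 read 48.6 in man, 70.3 in DOG, 71.8 in zer, 80.2 in OMG, 84.0 in wat and 95.1 in glc. AT3G15680 read 58.5 in man, 83.6 in OMG, 85.7 in DOG, 92.8 in zer, 94.6 in wat and 125.2 in glc. These genes share the glc maximum but differ in the array nearest to man, which was OMG in 3 of them, wat in AT5G49220 and DOG in AT1G60230.

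The remaining 5 named members were highest in wat, OMG or DOG. AT5G33370 read 44.9 in man, 66.8 in DOG, 68.6 in zer, 73.1 in OMG, 77.5 in glc and 100.4 in wat. AT1G60995 read 42.7 in man, between 63.1 and 66.9 in glc, OMG, DOG and zer, and 83.1 in wat. In both genes wat stood apart above the other arrays, so their folds against wat (2.24 and 1.95) exceeded their folds against the nearest array (1.49 and 1.48). AT3G03790 read 58.2 in man, 86.7 in glc, 103.7 in DOG, 114.3 in wat, 114.8 in zer and 132.9 in OMG. AT3G50350 read 41.3 in man, 52.1 in zer, 61.9 in OMG, 66.7 in glc, 70.8 in wat and 75.5 in DOG. AT3G50350 was the member in which zer came nearest to man, 1.26-fold above it. AT2G28080 read 86.1 in man, 123.6 in OMG, 130.2 in glc, 133.7 in zer, 136.5 in wat and 138.0 in DOG, so that all arrays other than man lay close together.

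The 15 unnamed members read between 36.9 and 364.2 in man, with a median of 59.2. Their nearest array exceeded man by 1.43-fold to 1.90-fold. They included the 4 brightest members, which were singled out after their values were seen. Probe set 255433_at read 364.2 in man and 550.1, 553.0, 553.3, 570.8 and 574.1 in OMG, wat, zer, DOG and glc. It had the tightest values of all members on wat, glc, OMG and DOG, within 1.04-fold, and man lay 1.51-fold under them. Probe set 251395_at read 332.8 in man, between 491.8 and 637.4 in wat, OMG, DOG and glc, and 714.8 in zer. Probe sets 261129_at and 258675_at read 190.7 and 180.8 in man, beside 276.1 and 265.7 on their nearest arrays. Among the dimmer ones, 252184_at read 52.2 in man and between 99.3 and 112.3 on all other arrays, a 1.90-fold gap.

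**Figure D3:**
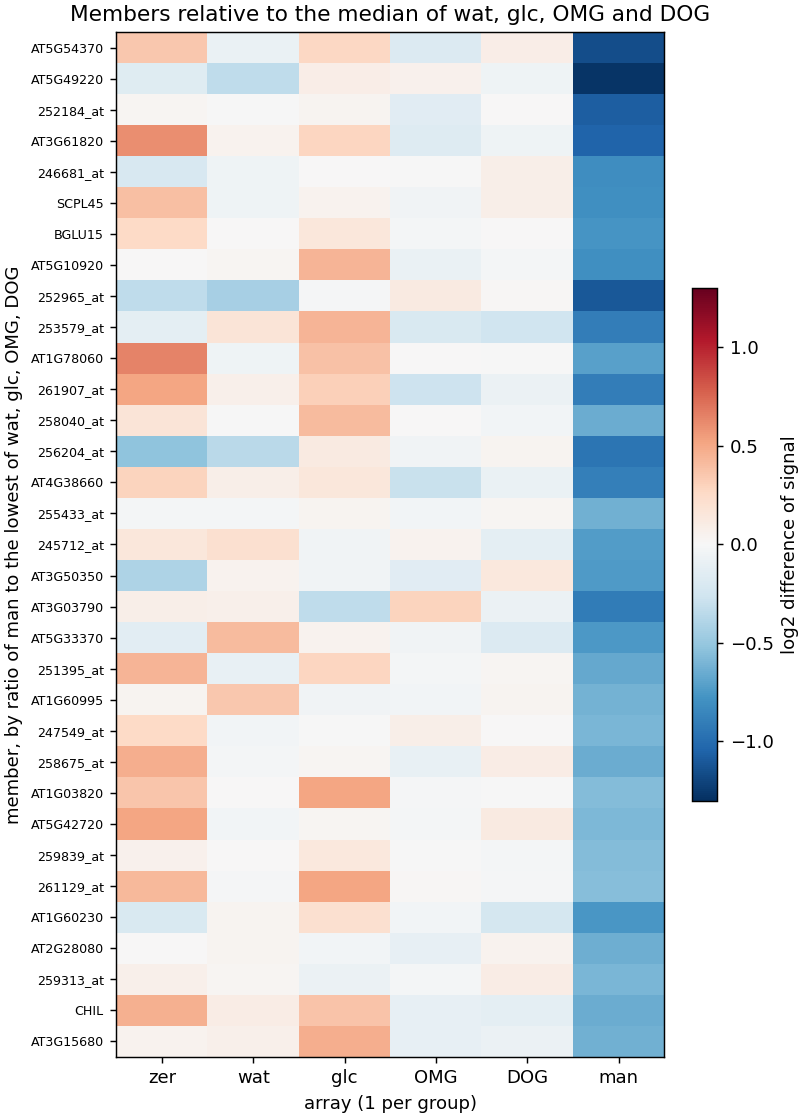
Log2 difference of each member's signal (rows) on each array (columns) from the member's median over wat, glc, OMG and DOG; rows run from the smallest ratio of man to the lowest of these arrays, and unnamed members carry their probe set number. The man column is the lowest in every row, and the zer column ranges from -0.52 to 0.65.

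The zer array was the one the rule constrained least. Man read under zer for all 33 members, and for 53.1% of the 8404 probe sets, a count that restates the choice of members by a low man signal. No member had zer at or below 0.7 times the lowest of wat, glc, OMG and DOG, a reading found in 87 probe sets of the table (1.04%). A count of 0 among 33 is near that share. Of the 49 probe sets that met the rule without the OMG array it was 4, and of the 54 without the DOG array 3. The matching shares of the table are not given here. Zer was above the highest of wat, glc, OMG and DOG in 12 of 33 members, against 21.7% of the 8404, and below the lowest in 3 of 33, against 22.5% (7 of 33 and 30.1% after scaling to equal medians). Those 3 were AT3G50350, 256204_at and 246681_at. The rule itself keeps out very high zer values, and it asks for a minimum signal on the other arrays but not on zer.

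The median log2 difference of zer from the median of wat, glc, OMG and DOG was 0.07 over the members and -0.01 over the 8404 probe sets, with members from -0.52 (256204_at) to 0.65 (AT1G78060). Members therefore lay on both sides. Zer was above this median in 24 of 33 members, beside 49% of the table. After scaling to equal medians that count was 17 of 33, beside 37.6%, while the count with zer above the highest of wat, glc, OMG and DOG was 12 under each of the 3 scalings. The median difference was 0.25 over the 23 probe sets that met the rule after quantile normalization. It was 0.26 over the 9 with a lowest signal of 100, and 0.005 over the 22 after scaling to equal medians. The size of any shift in zer thus depended on the processing and on the set, which changed together. RNA completeness, read as the 3' to 5' signal ratio of control transcripts, varied between arrays. One actin pair gave 7.48 in zer, 6.41 in glc, 4.55 in man and 3.46 to 4.66 in wat, OMG and DOG, and a second gave 1.86 in zer, 1.76 in glc, 1.72 in man and 1.55 to 1.62 in the other three. Zer was highest in the GAPDH pairs too, but these ordered the remaining arrays otherwise. One gave 1.38 in zer, 1.26 in glc, 1.35 in man and 1.21 to 1.35 in wat, OMG and DOG. The other gave 1.16 in zer, 0.864 in glc, 0.944 in man and 0.838 to 0.905 in wat, OMG and DOG. The zer array thus had the highest ratio in every pair. The part of RNA completeness in the results was not tested.

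The glc array tended to lie at the upper end among wat, glc, OMG and DOG. It was the highest of them in 20 of 33 members, beside 39.7% of the 8404 probe sets, and the lowest in 3, beside 34.6%. The members lowest in glc were AT3G03790, AT1G60995 and 259313_at. A transcript low in glc had to be lower still in man to enter. Both shares, and the comparisons of glc with wat that follow, are thus bound up with the rule and carry no support. Glc was above wat in 26 of 33 members, beside 53.4% of the table, and at least 1.2-fold above it in 13, beside 23.3%. No member was 1.5-fold lower in glc than in wat, where 5.25% of the table was, and 3 were at least 1.2-fold lower, beside 18.8%. The median log2 difference of glc from wat was 0.15 over the members and 0.03 over the table, and the members ran from -0.40 (AT3G03790) to 0.54 (261129_at). Under quantile normalization and equal medians the count of members with glc above wat was again 26.

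**Figure D4:**
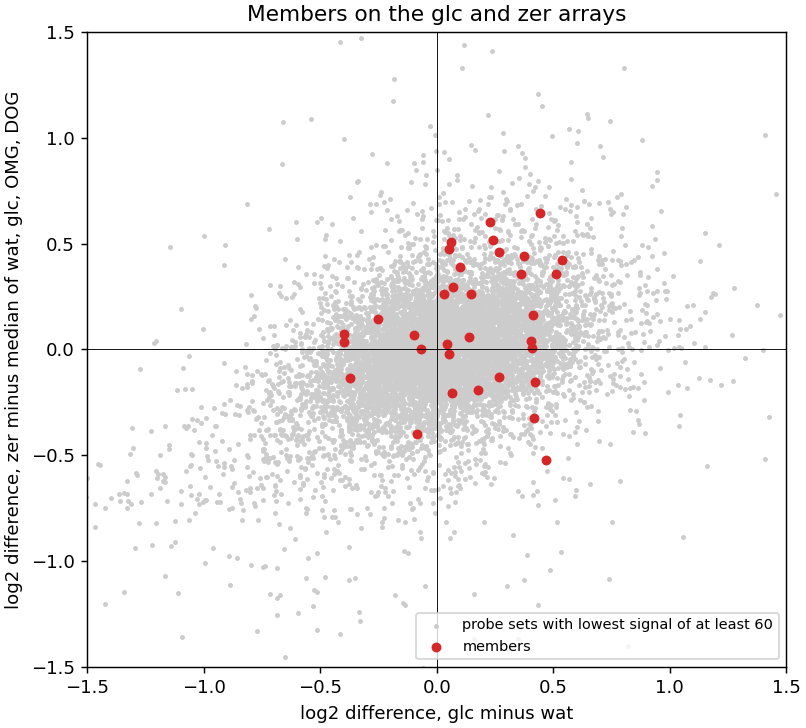
Log2 difference of glc from wat (horizontal) and of zer from the median of wat, glc, OMG and DOG (vertical) for the 33 members (red) and the 8404 probe sets with a lowest signal of at least 60 (grey); 53 grey points fall outside the axes. Members run from -0.40 to 0.54 horizontally and from -0.52 to 0.65 vertically, with 26 of 33 to the right of 0.

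Zer and glc were both above all of wat, OMG and DOG in 13 members, beside 21.5% of the table. The named ones among them were AT5G54370, AT3G61820, BGLU15, AT1G78060, AT4G38660, AT1G03820 and CHIL. This pattern is a description, picked after the values were seen, and its glc part is bound up with the rule. The analog arrays differed less from wat: the median log2 difference over members was -0.04 for OMG and 0.01 for DOG, beside 0.01 for both over the table. OMG was the array nearest above man in 13 members (18% of the table had OMG lowest), wat in 10 (24.9%), DOG in 7 (22.5%) and glc in 3. After scaling to equal medians OMG was nearest in 8 of 33, beside 10.2% of the table. The nearest array is the lowest of wat, glc, OMG and DOG, which the rule used. Glc was lowest in 34.6% of the table but in few members, which raises the shares of wat, OMG and DOG among members. These shares are thus bound up with the rule and carry no support. The OMG and DOG signals of a member differed by at most 0.36 on the log2 scale.

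Membership had a sharp edge without a gap in the values. Just inside the ratio of 0.7 lay AT3G15680 at 0.6998, CHIL at 0.698 and 259313_at at 0.697. Just outside lay 3 unnamed probe sets, 264941_at, 247069_at and 257063_s_at, with ratios from 0.7005 to 0.7038. A further 5 probe sets were as low in man but exceeded a limit on glc or zer. Of these, AT4G30650 read 37.8 in man and 66.4 in wat but 291.3 in zer, and the expansin gene EXPB3 read 39.6 in man, 65.3 in DOG and 124.8 in zer. GSTU20, a glutathione transferase gene, read 198.9 in man, 312.5 in DOG and 905.2 in zer. AT4G29270 was over the limit on zer as well, and AT3G13610 over that on glc, at 123.6 in glc against 51.3 in man.

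Related genes gave a way to set the symbol-bearing members beside their families. The 25 gene lists covering pathways and cell types held 934 entries, but only 104 genes had a probe set named for them alone. Of these, 55 had a lowest signal of at least 60. Most listed genes could therefore not be read, and unnamed members could not be matched to a list. CHIL was the only member among these 55 genes, and GSTU20 the only other one at or below the 0.7 ratio. In the flavonoid and phenylpropanoid list 3 genes could be read at that level, with a median log2 difference of man from the median of wat, glc, OMG and DOG of -0.22, beside -0.02 for all 8404. HCT, an acyltransferase of lignin precursor synthesis, read 405.9 in man and 443.3 to 489.4 on those arrays. HYH, a bZIP transcription factor of light signalling, read 164.6 in man and 120.8 to 161.1 there, so it was highest in man. DFR, the dihydroflavonol reductase of anthocyanin synthesis, was dimmer and read 36.5 in man and 37.5 in glc.

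Families were read by symbols beginning BGLU or SCPL. Among such genes bright enough to read, BGLU15 and SCPL45 were the only ones at or below the 0.7 ratio. Relatives under other symbols, such as the beta-glucosidase gene PYK10, and unnamed probe sets were not counted. Of 6 BGLU probe sets with a lowest signal of at least 60, 3 read lower in man than on all of wat, glc, OMG and DOG. Besides BGLU15 these were BGLU42, at 69.3 in man against 73.0 in DOG, and BGLU44, at 427.7 against 449.1 in wat. BGLU16 and BGLU25 read highest in man, the first at 257.6 against 155.0 to 247.4 on those arrays and the second at 83.4 against 68.3 to 72.6. BGLU40 lay within their range, at 95.3. Of 3 SCPL probe sets, SCPL34 read 195.0 in man and 178.3 in wat, and SCPL49 read 220.5 and 215.5. No second probe set was annotated to any of the 18 named genes. Unnamed probe sets could not be checked for a further reading of these genes, and the unnamed members could not be checked at all. The 18 genes did not cluster: the nearest pair lay 76 positions apart in the order of protein-coding genes of assembly TAIR10.1.

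Among the other lists, the 4 glucosinolate genes that could be read were lower in man than on each of wat, glc, OMG and DOG (3 of 4 after scaling to equal medians), with a median log2 difference of -0.41. None was a member. BCAT4, which starts methionine chain elongation, read 144.6 in man and 162.4 in wat, and the transporter genes GTR1 and GTR2 read 112.7 and 120.8 in man against 128.6 and 126.0 on the nearest array. The fourth was GSTU20. In the cell cycle and DNA replication list 3 of 5 genes were lowest in man, with a median of -0.28. HTB1, a histone H2B gene, read 123.1 in man and 152.9 in OMG. AUR1 and PRL were only just under OMG, at 74.3 in man against 76.3 and at 78.8 against 80.0. HTB4 and HTB2 did not read lowest in man. The list of sugar starvation and low energy genes lay on the opposite side, with 8 of 9 genes higher in man than on each of those arrays (9 of 9 under both other scalings) and a median of 0.23. Across the 8404 probe sets 2324 (27.7%) read lower in man than on all of wat, glc, OMG and DOG, and 1781 read higher than on all of them.

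Markers of root and shoot were read as a check on the labelled tissue. The 9 photosynthesis genes were all above 0 on every array and their summed signal ran from 17188.9 in glc to 20146.8 in zer, with 17717.2 in man. Of these 9, 3 read lowest in man (2 under either other scaling), near the 27.7% of the 8404 probe sets. Their median log2 difference of man from the median of wat, glc, OMG and DOG was -0.10. PORB, a protochlorophyllide reductase gene, had the lowest difference, -0.50, at 529.9 in man against 697.2 in DOG. The 6 general root markers summed to 3623.3 in man, the lowest sum, against 3691.5 in DOG and 5101.9 in zer. Most of that sum was PYK10, a beta-glucosidase gene at 2637.8 in man, while JAL33 read 719.0 in man, above wat, glc and DOG, so the markers went both ways. The 6 genes of the root hair and root epidermis list summed to 999.5 in man, the highest sum, against 826.8 in glc and 959.9 in DOG. Most of that sum was FER, SCN1 and CSLD2, at 466.6, 268.1 and 185.6 in man. EXPA7, EXPA18 and XTH26 were dim, at 43.4, 34.7 and 1.1, and did not read highest in man. EXPA7 and EXPA18 were also barred from membership by name. No gene of these lists was at 0 on any array, and none was a member. The part of a change in root or shoot share in the members' low signals was not tested.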

How the data were processed

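The deposited values are linear probe set intensities. Per the submitters' processing notes MAS5 made them; the version is not given in the sources used here. Each deposited column had a trimmed mean of 100 (2% trimmed from either end), so a change shared by most transcripts cannot be seen. Of 22810 probe sets, 64 controls were left out. Gene names came from the platform annotation and a gene table of assembly TAIR10.1: 13436 probe sets matched a single gene there, 77 named a gene without a match, 503 named several and 8730 are unnamed here. Sequences were not used here. A listed gene was read from its brightest probe set.

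The members and gene lists were chosen with earlier results of these data known. The text names every member with a single gene, the 3 probe sets on each side of the ratio, and genes of lists or families that hold a member; others were chosen after their values were seen. With 1 array per group no test was run. Alternatives changed the scaling, the ratio, the lowest signal, a floor at the 40th percentile and the arrays used. The rule was run on simulated data as a check of the code. The planted drops were larger than in most members and lay in brighter probe sets. The run therefore gives no measure of how the rule performs on the deposited signals. Python 3.11.15, pandas 2.3.3, numpy 2.4.6 and matplotlib 3.10.9 were used.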

Additional observations from a re-analysis of the deposited data

How the results depend on the processing

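The 33 members became 23 after quantile normalization and 22 with equal medians, of which 22 in each case were among the 33, and 19 members met the rule under both. A ratio of 0.6 in place of 0.7 left 6 probe sets and one of 0.8 gave 164. A lowest signal of 40 in place of 60 gave 52, and one of 100 gave 9. Leaving out the wat array gave 50, glc 43, OMG 49 and DOG 54. Without the limit on glc there were 34 and without that on zer 36; these 2 alternatives were chosen after seeing the data. The floor at the 40th percentile changed no count. No member met the rule under all 13 alternatives, and none under more than 12. Leaving aside the stricter ratio and the higher signal, 17 members met the rule under all 11 other alternatives, 8 of them named.

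Each setting was read over the probe sets that met the rule under it. Members also low in zer numbered 0 in most settings, 3 with a ratio of 0.8, 2 with a lowest signal of 40, 4 without OMG and 3 without DOG. The median log2 difference of zer was 0.07, and 0.25 after quantile normalization and 0.005 with equal medians. It was 0.19 with a ratio of 0.6 and 0.26 with a lowest signal of 100. Members with wat at least 1.5-fold above glc numbered 0, and 1 with a ratio of 0.8. For the 18 named genes the other scalings were the alternatives that could raise man relative to the lowest array; of these 36 values, 15 no longer met the 0.7 ratio and none turned in direction. Causes were not tested. No paired analysis was possible because each group had 1 array. Dim members lie nearer to background, which limits how firmly any one of them can be read.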
